A study of Mus musculus with 4 samples.

Results

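Of the 12469 rows measured in 4 clones of a mouse neural stem cell line, 12 probe sets were annotated to 10 genes of the transforming growth factor beta (TGF-beta) and bone morphogenetic protein (BMP) pathways, and these members are described here. They were taken by gene symbol: the ligand genes Tgfb1, Tgfb2, Tgfb3, Bmp4 and Inhba, the receptor genes Tgfbr1 and Tgfbr2, and the signal transducer genes Smad2, Smad4 and Smad7. They are 10 of 8237 genes named by a probe set with 1 symbol. Tgfb3 and Bmp4 each had 2 probe sets and every other gene had 1. The clones derive from c17.2, an immortalised line from neonatal mouse cerebellum, kept here under proliferating conditions. Clone 42 and clone 48 carry a stable transfection of the orphan nuclear receptor Nurr1, and puroB and puroD one of the empty puromycin vector. Clone 42 was matched with puroB (the first pair) and clone 48 with puroD (the second pair) for similar proliferation rates. This pairing is that of the sample descriptions; the design text of the series names clone 42 again beside puroD, with c48 as its short form. Every line is a single clone on 1 array, so the clones are the replicates (2 per group), a difference between groups can also be one between clones, and the sources used here do not give the promoter that drives Nurr1.

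Ligands of the TGF-beta family bind pairs of type II and type I receptors, and the activated type I receptor phosphorylates receptor-regulated Smad proteins, which enter the nucleus with Smad4. TGF-beta and activin ligands act through Smad2 and Smad3, whereas BMP ligands act through Smad1, Smad5 and Smad9 and induce the Id genes. In neural progenitors BMP ligands are known for favouring astroglial over neuronal fates, and TGF-beta ligands for slowing proliferation and for roles in the development of dopaminergic neurons.

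Signals are MAS5 intensities, 1 per probe set and array, rescaled to a trimmed mean of 500, and a signal under 40.3, the 30th percentile of all values, was set to that floor before log2 was taken. Probe sets above the median of all values (145.05) on at least 2 of the 4 arrays were tested, 6419 in all. Background is given by 15 probe sets of spike controls, whose transcripts are assumed here to have been left out of the samples (unspiked). Their highest signal was 62.6 for clone 42 and 39.1 for clone 48, against 49.8 for puroB and 59.0 for puroD. Nr4a2, which encodes Nurr1, had signals of 320 for clone 42 and 206 for clone 48, against 485 for puroB and 254 for puroD, so the probe set 92248_at did not show the transfected gene as higher. A second Nr4a2 probe set, 92249_g_at, gave 188 and 113 in the Nurr1-labelled clones, against 372 and 213 in the controls, and there both Nurr1-labelled clones lay under both controls (log2 difference -0.95, limma adjusted p = 0.453). Whether these probes match the transfected sequence is not known here, so the clones are called Nurr1-labelled and directions follow the labels. The actin 3' to 5' signal ratio, which tracks RNA degradation, was 1.68 for clone 42 and 2.41 for clone 48, against 1.51 for puroB and 2.0 for puroD. The cell label was checked against nestin (Nes), an intermediate filament protein of neural stem cells, whose signal lay between 3027 and 3716 on the 4 arrays. The other 3 tested neural stem cell markers of the 10 listed, the radial glial Fabp7 and the Notch pathway genes Hes1 and Notch1, had both Nurr1-labelled clones under both controls, where 17.9% of all tested probe sets did. Fabp7 gave 564 and 157 in the Nurr1-labelled clones, against 1292 and 1538 in the controls (log2 difference -2.24, limma adjusted p = 0.0503), and Hes1 and Notch1 had -0.47 and -0.38. All 3 tested neuron marker genes were higher in both Nurr1-labelled clones than in both controls, as were 12.8% of all tested probe sets. The summed signals over the 6 genes of that list were 6622 for clone 42 and 5362 for clone 48, against 3132 for puroB and 3154 for puroD. Most of each sum was Tubb3 (5683 and 4628, against 2701 and 2701), and 2 of the 6 genes were at the floor on all arrays. Of the astrocyte markers Gja1 was lower without overlap (-0.72) and S100b overlapped, and of the oligodendrocyte markers Mbp was lower (-0.93) and Sox10 higher (0.63) without overlap and Mag overlapped. The 10 fibroblast markers summed to 20916 and 13696 in the Nurr1-labelled clones, against 8828 and 16211 in the controls. Most of each sum was S100a4 (12536 and 8201, against 6377 and 12489). Of the tested fibroblast markers Col3a1 was higher (1.58, limma adjusted p = 0.0853) and Twist1 lower (-1.21) without overlap. The Twist1 signal of clone 42 (53.9) was under the highest unspiked control of its array (62.6). S100a4, Col1a2 and Col1a1 overlapped. Of the 7 microglia and macrophage markers 4 were at the floor on all arrays, as were 3 of the 5 endothelial ones, and none of the endothelial markers was bright enough to be tested. The part of these marker differences in the results below was not tested.

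RefSeq promoter sequences (GRCm38.p6) were at hand for Tgfb1, Tgfb2, Tgfbr1, Tgfbr2, Inhba and Bmp4, as 7 windows of 300 bases, with 2 for Tgfbr1. The 250 bases before the start of Tgfb1 (chr7:25686752-25687001, plus strand) and of Tgfb2 (chr1:186705990-186706239, minus strand) are shown because these ligand genes differed in opposite ways between the control clones, as described below. Capitals mark CAGAC, the core that Smad proteins bind, on either strand.
Tgfb1: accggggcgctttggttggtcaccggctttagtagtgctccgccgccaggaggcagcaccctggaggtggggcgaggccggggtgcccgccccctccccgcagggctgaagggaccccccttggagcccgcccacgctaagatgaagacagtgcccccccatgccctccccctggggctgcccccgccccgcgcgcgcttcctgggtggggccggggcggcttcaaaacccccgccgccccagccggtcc
Tgfb2: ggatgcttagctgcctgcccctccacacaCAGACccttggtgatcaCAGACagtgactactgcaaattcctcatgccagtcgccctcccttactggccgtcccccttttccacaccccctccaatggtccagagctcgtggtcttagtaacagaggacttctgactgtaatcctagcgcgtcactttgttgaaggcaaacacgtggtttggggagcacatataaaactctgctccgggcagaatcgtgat

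The Tgfb1 window held no CAGAC on either strand and was rich in G and C (75.2%), and the Tgfb2 window (53.6% G and C) held the motif at 221 and 204 bases before the start. CAGAC was found in 3 of the 7 member windows, those of Tgfb2, Tgfbr2 and 1 of the 2 of Tgfbr1, and in 49.6% of all 32851 windows of this length. Neither the full palindrome GTCTAGAC (0.213% of all windows) nor AAAGGTCA, the site that Nurr1 binds as a monomer (1.51% of all windows), occurred in a member window on either strand, which says only that these letters are not in those windows.

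Of the 10 genes, 7 were tested, each with 1 probe set whose signal lay above the highest unspiked control on all 4 arrays. None of the 7 passed the test between Nurr1-labelled and control clones (limma, matched pair as a block, Benjamini-Hochberg adjusted p under 0.05), where 0.109% of all tested probe sets passed. An unadjusted p under 0.05 was reached by 1 of the 7, Tgfb3, against 7.38% of all tested probe sets. Their median log2 difference, Nurr1-labelled minus control, was 0.19, against -0.04 over all tested probe sets. Tgfb3 was lower in both Nurr1-labelled clones than in either control, and Tgfb1 and Smad7 were higher in both. Over all tested probe sets 12.8% lay higher without overlap and 17.9% lower without overlap. The remaining 4, Tgfb2, Bmp4, Smad2 and Smad4, had opposite signs in the matched pairs, as did 48.7% of all tested probe sets. Quantile normalization gave 2 members higher and 1 lower in both pairs, and scaling to the median gave 4 higher and 1 lower. Shares over all tested probe sets were not counted under these scalings, here or for the lists below. Scaling to the median also moved the median log2 difference of all tested probe sets from -0.038 to 0.132. Counts under it hold that shift towards higher values.

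**Figure D1:**
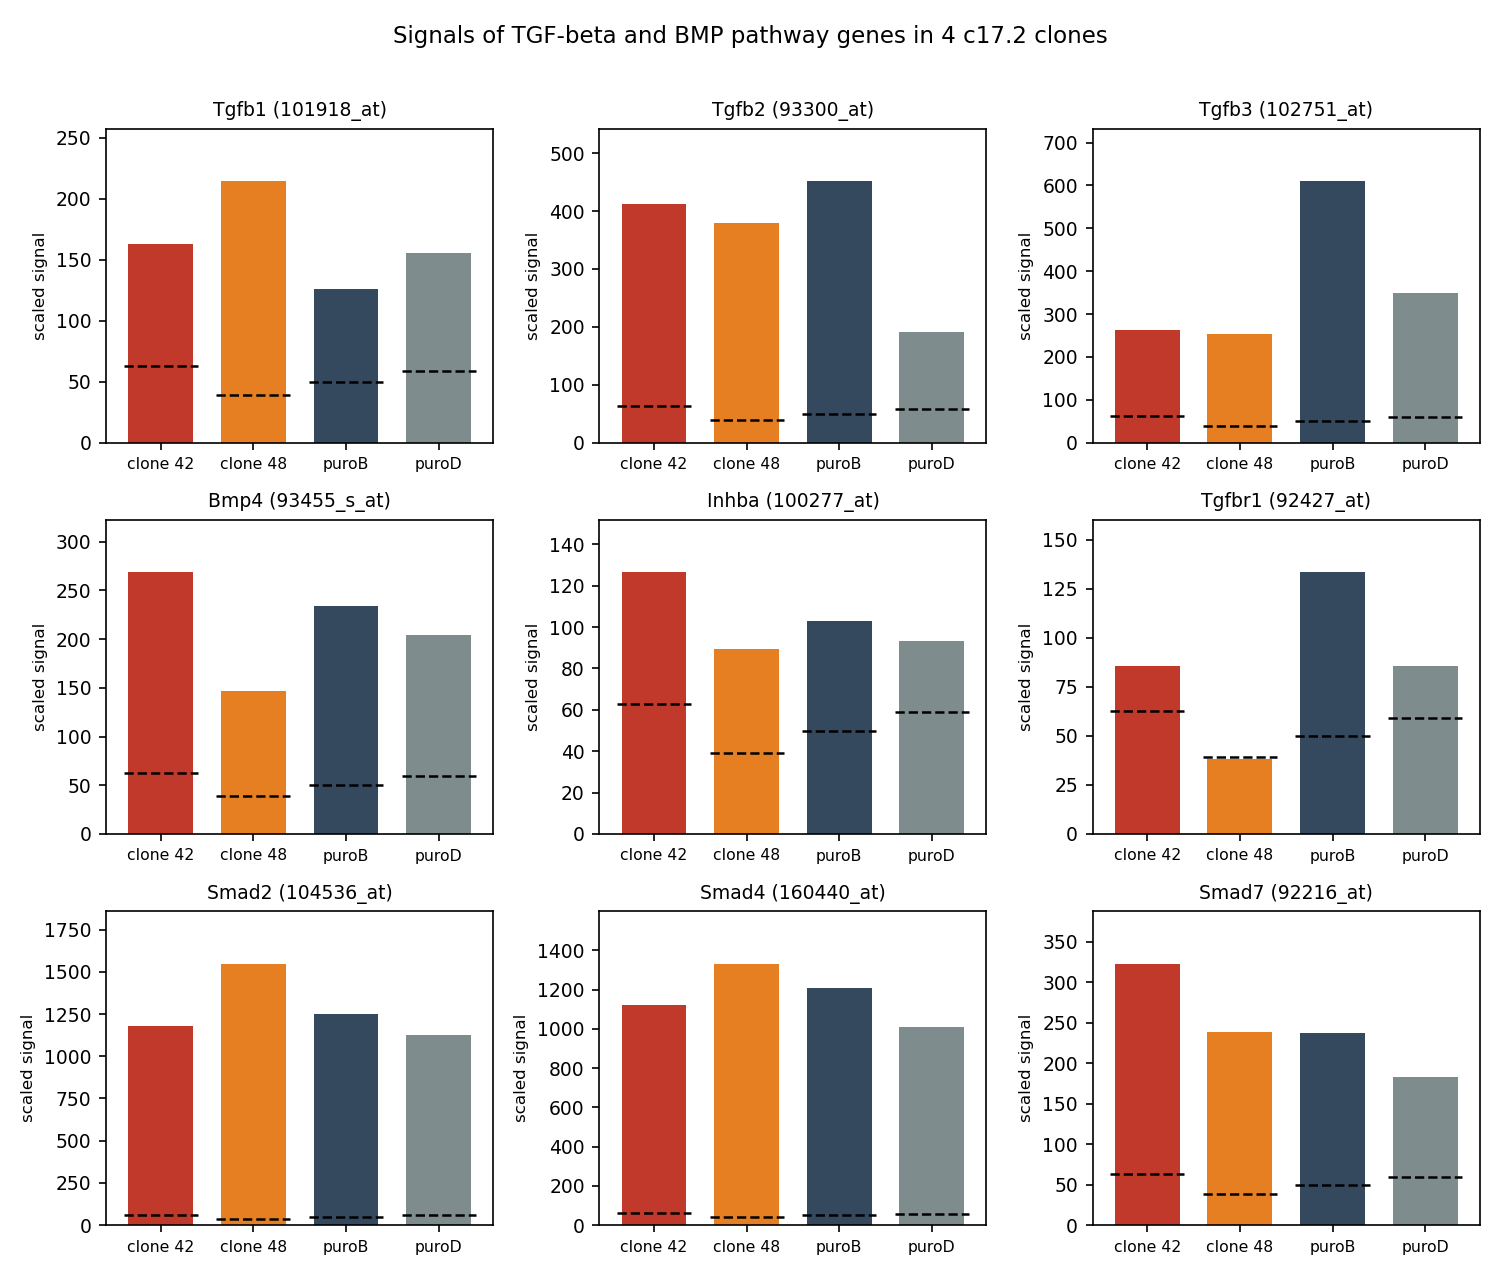
Scaled signal (linear axis from 0) of 9 of the 12 member probe sets in each clone, with Nurr1-labelled clones in red and orange and control clones in blue and grey; the dashed line is the highest unspiked control signal on that array. Tgfb3 sits at 264 and 254 in the Nurr1-labelled clones, against 610 and 350 in the controls, and Tgfbr1 in clone 48 (38.1) is just under its control line.

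Among the ligands, Tgfb3, the isoform known for its part in palate fusion, had the largest difference. Its probe set 102751_at gave signals of 264 for clone 42 and 254 for clone 48, against 610 for puroB and 350 for puroD. The Nurr1-labelled clones lay close together and under both controls, which were far apart: puroB was 1.74-fold above puroD. Tgfb3 was 2.31-fold lower in clone 42 than in its match puroB, and 1.38-fold lower in clone 48 than in puroD, and it was the 1 tested member at 2-fold or more in the first pair, where 8.35% of all tested probe sets were. The mean log2 difference was -0.84 ± 0.31 (SE, n = 2 clones per group), with a 95% interval of -1.50 to -0.17 that does not allow for the number of probe sets tested, and the limma adjusted p was 0.465 (unadjusted 0.0168). It was -0.436 without puroB. Of all tested probe sets, 4.8% had a larger absolute difference. The other Tgfb3 probe set, 161382_at, gave 22.9 for clone 42 and 8.29 for clone 48, against 8.09 for puroB and 8.59 for puroD, all under the floor and under the highest control on each array, so it neither repeats nor contradicts the difference.

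Tgfb1, which encodes the most widely expressed isoform, had a difference of the other sign. Its signals (101918_at) were 163 for clone 42 and 215 for clone 48, against 126 for puroB and 155 for puroD. The groups did not overlap, but clone 42 and puroD were only 7.72 signal units apart. The ratio was 1.29-fold in the first pair and 1.38-fold in the second, so both matched pairs gave nearly the same difference. The mean log2 difference was 0.42 ± 0.38 (SE, n = 2 clones per group), with a 95% interval of -0.39 to 1.23 (limma adjusted p = 0.931). It was 0.219 without clone 48 and 0.268 without puroB. Between the control clones it was -0.30, puroB minus puroD.

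Tgfb2, the isoform prominent in neurons and glia of the developing brain, gave 413 for clone 42 and 380 for clone 48, against 452 for puroB and 191 for puroD (93300_at). Clone 42, clone 48 and puroB were thus alike and puroD stood apart on the low side. The control clones differed by 2.37-fold, puroB over puroD, which made Tgfb2 the 1 tested member at 2-fold or more between them, where 6.06% of all tested probe sets were, and 3.0% of them had a larger absolute difference between the control clones. In the matched pairs the log2 difference was -0.13 for clone 42 minus puroB and 0.99 for clone 48 minus puroD. The mean was 0.43 ± 0.33 (SE, n = 2 clones per group; limma adjusted p = 0.896), with a 95% interval of -0.27 to 1.14, and it was -0.19 without puroD. No tested member reached 2-fold in the second pair, where 5.39% of all tested probe sets did; Tgfb2 came nearest, at 1.99-fold.

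Bmp4, the BMP ligand of the dorsal neural tube, was measured at 269 for clone 42 and 147 for clone 48, against 234 for puroB and 204 for puroD (93455_s_at). Both Nurr1-labelled clones lay outside the range of the controls, clone 42 above and clone 48 below. Log2 differences were 0.20 (clone 42 minus puroB) and -0.47 (clone 48 minus puroD), and their mean, -0.14 ± 0.35 (SE, n = 2 clones per group; limma adjusted p = 0.995), changed sign with quantile normalization (0.02), with scaling to the median (0.031) and without clone 48 (0.299). Its 95% interval ran from -0.89 to 0.61. A second probe set, 93456_r_at, was at 5.69 and 5.19 in the Nurr1-labelled clones, against 22.5 and 26.7 in the controls, all under the floor. Inhba, the activin beta A subunit, was too dim to be tested, with signals of 126 for clone 42 and 89.4 for clone 48, against 103 for puroB and 93.3 for puroD (100277_at). All 4 exceeded the highest control on their array, and the groups overlapped, with log2 differences of 0.30 in the first pair and -0.06 in the second, and a mean of 0.12 that was -0.133 without clone 42.

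Neither receptor gene among the members was bright enough to be tested. Tgfbr1, the type I receptor for TGF-beta, had signals of 85.6 for clone 42 and 38.1 for clone 48, against 133 for puroB and 85.8 for puroD (92427_at). Clone 48 was under the floor and under its highest control (39.1), and clone 42 and puroD were almost equal. Clone 42 minus puroB was -0.64 on the log2 scale, a 1.56-fold lower signal in clone 42, and in the second pair the signal was at least 2.13-fold lower in clone 48. Tgfbr2, the type II receptor that binds TGF-beta first, gave 23.1 for clone 42 and 4.99 for clone 48, against 4.20 for puroB and 29.1 for puroD (94702_at). These 4 signals were all below the floor and below the highest control on each array, so no level and no difference can be given for Tgfbr2.

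The transducer genes Smad2 and Smad4 shared an order of clones, with clone 48 highest, then puroB, clone 42 and puroD. Smad2, which carries the TGF-beta and activin signal, had signals of 1182 for clone 42 and 1549 for clone 48, against 1251 for puroB and 1126 for puroD (104536_at). Smad4, the common partner of receptor-regulated Smads, had 1123 for clone 42 and 1332 for clone 48, against 1206 for puroB and 1011 for puroD (160440_at). For both genes clone 42 lay between the controls and clone 48 above them. Smad2 differed by -0.08 between clone 42 and puroB and by 0.46 between clone 48 and puroD on the log2 scale, which averaged 0.19 ± 0.31 (SE, n = 2 clones per group; 95% interval -0.48 to 0.86; limma adjusted p = 0.985), and -0.006 without clone 48. The Smad4 differences were -0.10 and 0.40, which averaged 0.15 ± 0.31 (SE, n = 2 clones per group; 95% interval -0.51 to 0.81; limma adjusted p = 0.995). The upper bounds are 0.86 for Smad2 and 0.81 for Smad4, so the test does not show that they were equal. The Smad4 mean was 0.023 without clone 48 and 0.02 without puroD.

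Smad7, the inhibitory Smad that is itself induced by TGF-beta and BMP and that turns receptors over, was higher in the Nurr1-labelled clone of each pair by nearly the same ratio. Signals were 323 for clone 42 and 239 for clone 48, against 238 for puroB and 183 for puroD (92216_at). The groups did not overlap, though clone 48 exceeded puroB by only 0.84 signal units. The ratio was 1.36-fold in the first pair and 1.31-fold in the second, and 1.30-fold between the control clones, puroB over puroD. The mean log2 difference was 0.41 ± 0.32 (SE, n = 2 clones per group; limma adjusted p = 0.897), with a 95% interval of -0.27 to 1.10. It was 0.195 without clone 42, 0.632 without clone 48 and 0.224 without puroD.

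**Figure D2:**
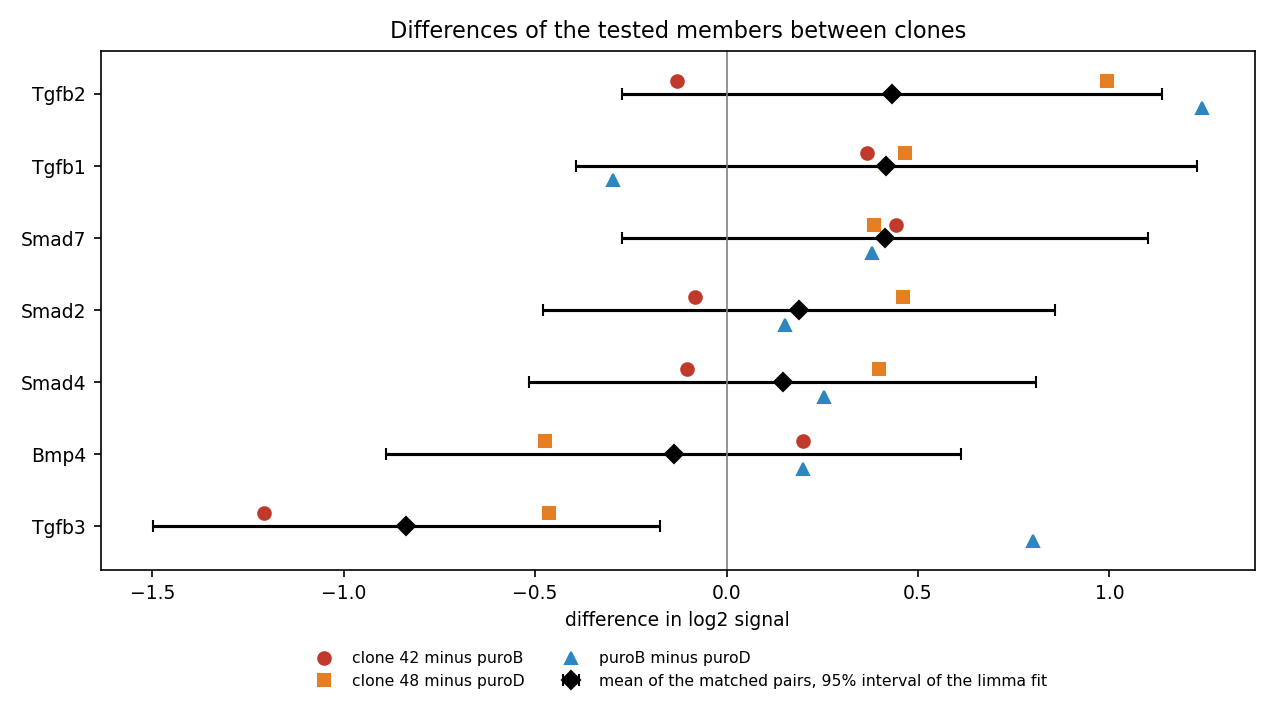
Difference in log2 signal for the 7 tested members: circles and squares are the matched pairs, diamonds their mean with the 95% interval of the limma fit (not adjusted for the number of probe sets), and triangles the difference between the control clones. The pairs nearly coincide for Tgfb1 and Smad7, lie on both sides of 0 for Tgfb2, Smad2, Smad4 and Bmp4, and the interval leaves out 0 for Tgfb3 alone.

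The spread between the control clones bears on all of these values. For 3 of the 7 tested members (Tgfb2, Smad4 and Bmp4) the absolute log2 difference between puroB and puroD was larger than the mean matched difference, as it was for 59.3% of all tested probe sets. Of the 7, 6 were higher in puroB than in puroD, Tgfb1 being the exception, against 56.1% of all tested probe sets. The comparisons of clone 42 with puroB and of puroB with puroD share the puroB array, so a high puroB signal, as for Tgfb3, enters both.

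The wider pathway was followed in 6 lists holding 112 genes, of which 48 were tested, members included; the brightest tested probe set stood for each gene. None passed the limma test (lowest adjusted p 0.183, for Bmp1), and 6 had an unadjusted p under 0.05, as did 7.38% of all tested probe sets. In both matched pairs 10 of the 48 were higher and 14 lower, against 21.7% and 29.7% of all tested probe sets.

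The 6 tested ligand genes split into 2 higher and 1 lower in both pairs and 3 of neither kind, and the median log2 difference was 0.24. Beside the members, Lefty1, an antagonist of Nodal signalling, gave 194 and 172 in the Nurr1-labelled clones, against 94.2 and 130 in the controls. Its mean log2 difference was 0.72 ± 0.41 (SE, n = 2 clones per group, limma adjusted p = 0.828). A second Lefty1 probe set, 162480_f_at, was under the floor on every array. The 6 tested receptor genes split into 3 lower and 0 higher in both pairs and 3 of neither kind with the scaling used here. With quantile normalization these counts were 2 lower and 2 higher, and with scaling to the median 1 lower and 2 higher. Acvrl1, a type I receptor best known from blood vessels, gave 412 and 342 in the Nurr1-labelled clones, against 826 and 508 in the controls (100450_r_at). Its mean log2 difference was -0.79 ± 0.29 (SE, n = 2 clones per group; limma adjusted p = 0.466), and the other Acvrl1 probe sets gave -0.94 and -0.83, so all 3 had both Nurr1-labelled clones under both controls. The activin receptors Acvr2a and Acvr2b had -0.35 and -0.30, and endoglin (Eng), a co-receptor, -0.24.

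Among 11 tested Smad genes and Smad regulators, 3 were higher and 2 lower in both pairs, with 6 higher and 0 lower when arrays were scaled to the median. The ubiquitin ligase Nedd4l had a mean log2 difference of 0.36, the phosphatase Ppm1a 0.32, and Strap, which binds TGF-beta receptors, -0.39. Of 6 tested extracellular regulators, 1 was higher and 1 lower in both pairs, with 3 higher and 0 lower after scaling to the median. The higher one was Bmp1, which despite its name encodes a metalloprotease that matures collagens and cleaves the BMP antagonist chordin. Its signals (95557_at) were 910 for clone 42 and 1029 for clone 48, against 317 for puroB and 606 for puroD. The Nurr1-labelled clones lay well above the controls, with a mean log2 difference of 1.14 ± 0.30 (SE, n = 2 clones per group; limma adjusted p = 0.183, unadjusted 0.00211). A second Bmp1 probe set, 92701_at, gave 609 and 428 in the Nurr1-labelled clones, against 362 and 300 in the controls, and a mean of 0.63 ± 0.29 (limma adjusted p = 0.657). Bmp1 passed at 95557_at only when arrays were scaled to the median (1.31, limma adjusted p = 0.0405); over the other 12 alternatives its adjusted p ran from 0.0591 to 1, and its difference was 0.676 without puroB. The BMP-binding protein Twsg1 had 0.39, the latent TGF-beta binding protein Ltbp4 0.34 and the activin antagonist Fstl3 -0.18.

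**Figure D3:**
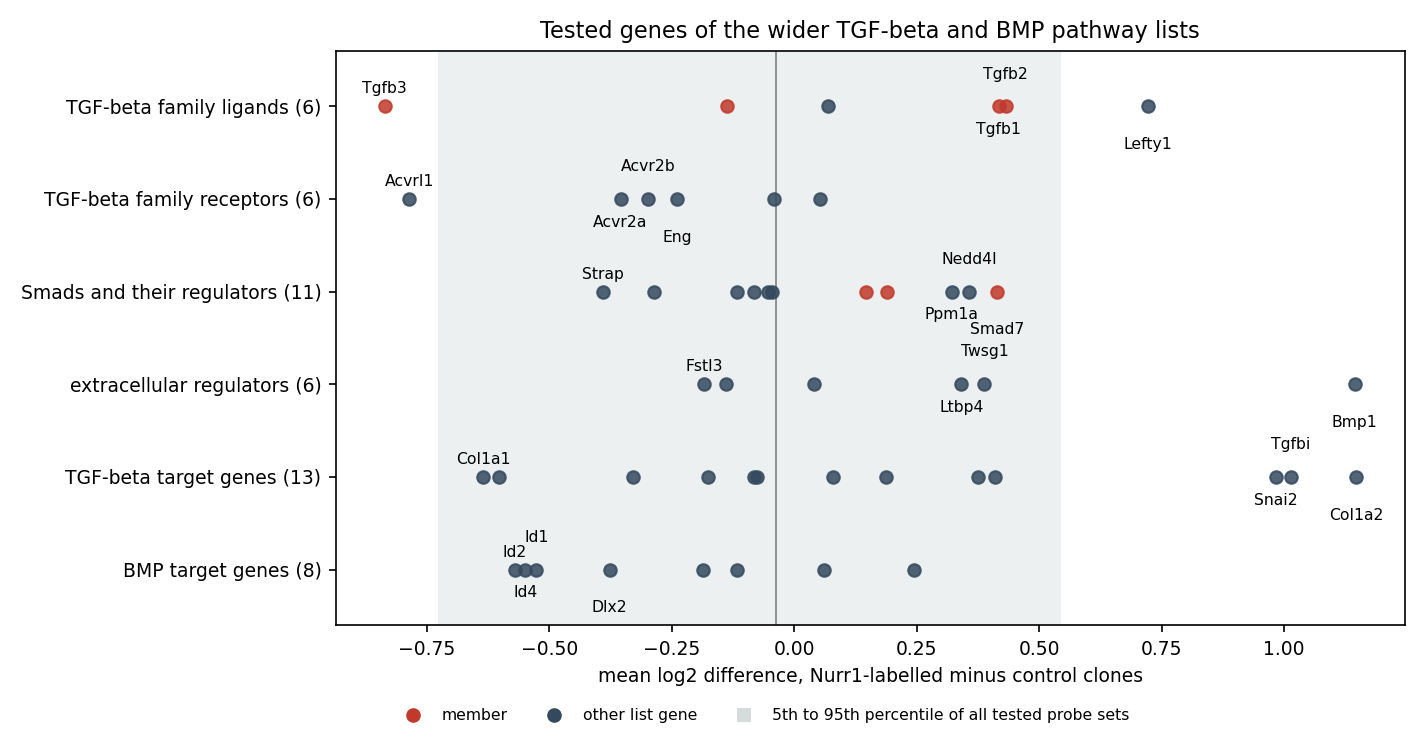
Mean log2 difference, Nurr1-labelled minus control clones, of every tested gene of 6 pathway lists (number tested in brackets), with members in red; the shaded band spans the 5th to the 95th percentile of all tested probe sets (-0.72 to 0.54) and the line is their median. Bmp1, Col1a2, Tgfbi, Snai2 and Lefty1 lie right of the band and Tgfb3 and Acvrl1 left of it.

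The 13 tested TGF-beta target genes held 3 that were higher and 2 that were lower within both pairs, and the median log2 difference was 0.08. Quantile normalization gave 3 higher and 3 lower, and scaling to the median 5 higher and 1 lower (median 0.25). Tgfbi, an extracellular matrix protein named for its induction by TGF-beta, gave 2621 for clone 42 and 1976 for clone 48, against 1264 for puroB and 1004 for puroD (92877_at). Both pairs differed by nearly the same amount, 1.05 and 0.98 on the log2 scale. Their mean was 1.01 ± 0.31 (SE, n = 2 clones per group, limma adjusted p = 0.265). A second Tgfbi probe set, 161157_r_at, was under the floor on every array, so it neither repeats nor contradicts the difference. The mesenchymal transcription factor gene Snai2 had 0.98 ± 0.31 (limma adjusted p = 0.298), with 1.08 and 0.88 in the pairs. Collagen I was not of 1 direction: Col1a2 had 1.15 at 1 probe set (2.36 in the first pair, -0.07 in the second) and -0.03 at the other, and Col1a1 -0.63 at its tested probe set (0.16 and -1.43). Col1a2 was highest in clone 42 (2688 at 101130_at), but Col1a1 was highest in puroD (559 at 103709_at). The summed fibroblast markers given above hold both collagen I genes but are mostly S100a4, and were highest in clone 42.

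For most BMP target genes tested the arrays separated by matched pair, not by label. Id1, an inhibitor of differentiation factors that BMP signalling induces directly, had signals of 421 in clone 48 and 658 in its match puroD, and of 118 in clone 42 and 156 in its match puroB (100050_at). It was 4.21-fold higher in puroD than in puroB and 3.58-fold higher in clone 48 than in clone 42. Within the pairs the log2 difference of Id1 was -0.41 and -0.64, averaging -0.53 ± 0.31 (SE, n = 2 clones per group; limma adjusted p = 0.841). Of the 8 tested BMP targets, 6 (Id1, Id3, Dlx2, Msx1, Smad6 and Hey1) had both arrays of the second pair above both arrays of the first. With the same scaling, 16.8% of all tested probe sets did. The count was 6 with quantile normalization and 7 with scaling to the median, for which no share over all tested probe sets was counted. Scaling to the median raises the second pair against the first, since its deposited medians were lower (125.6 and 145.9, against 147.1 and 160.1). Id3, another Id gene and named here after its values were seen, had 1337 in clone 48 and 1174 in puroD, and 792 in clone 42 and 644 in puroB.

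Bmp4 lay the other way round. Both arrays of the second pair, 147 in clone 48 and 204 in puroD, lay under both of the first, 269 in clone 42 and 234 in puroB. This was not particular to Bmp4, since it also held for Tgfb2, making 2 of the 7 tested members. It held for 3 of the 6 tested receptor genes and 3 of the 6 tested extracellular regulators. The counts were 2 of 11 for Smads and their regulators, 3 of 13 for TGF-beta targets and 0 of 8 for BMP targets. The share of all tested probe sets lying this way was not counted, so these counts have no background to be read against. A link between Bmp4 and the BMP targets was not tested. The arrays of the second pair also had the higher actin 3' to 5' ratios (2.41 and 2.0, against 1.68 and 1.51), and the part of this in the differences between the pairs was not tested. With 1 array per clone there is no replicate of either pair, and no test was made between them.

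Within the matched pairs, 6 of the 8 BMP targets were lower and 1 higher in the Nurr1-labelled clone of both pairs, where 29.7% and 21.7% of all tested probe sets were, and 0 passed the test; with scaling to the median 3 were lower and 3 higher. Id2 had signals of 311 and 426 in the Nurr1-labelled clones, against 496 and 590 in the controls, and a mean log2 difference of -0.57 ± 0.29 (SE, n = 2 clones per group; limma adjusted p = 0.740). Id4 had -0.55 and the homeobox gene Dlx2 -0.38. The 1 gene higher in both pairs was Id3, at 0.24.

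**Figure D4:**
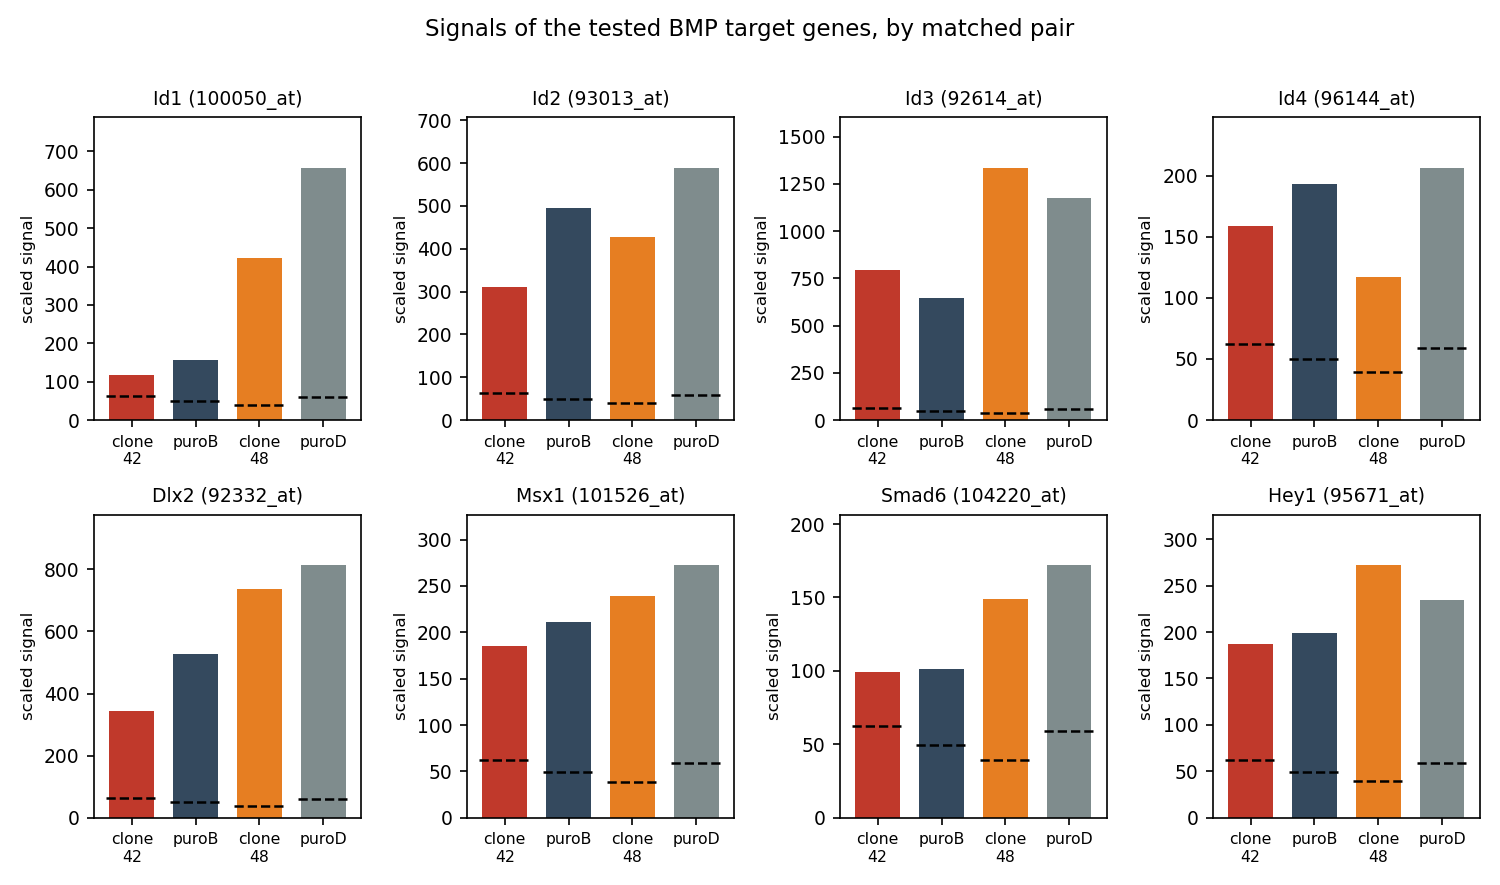
Scaled signal (linear axis from 0) of the 8 tested BMP target genes, with each Nurr1-labelled clone beside its matched control and the highest unspiked control signal as a dashed line. Id1 stands at 421 and 658 in clone 48 and puroD, against 118 and 156 in clone 42 and puroB, and Id4 is the gene of the Id family whose lowest signal is in clone 48.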

How the data were processed

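Total RNA of 4 clones was labelled with biotin and hybridised to Affymetrix arrays, 1 per clone, per the labels. The deposited values are linear intensities, 1 per probe set and array; the submitters' processing notes name MAS5, without a version or scaling target, and no detection calls were used. Gene symbols came from the platform annotation and, for the members, matched a RefSeq gene table (GRCm38.p6) through Entrez identifiers.

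Each array was rescaled to a mean of 500 after trimming 2% from each end, floored at the 30th percentile of all values (40.3) and put on a log2 scale. The 66 array controls were left out. The 6419 probe sets above the overall median on at least 2 arrays were fitted with limma 3.58.1 in R 4.3.3 (lmFit, eBayes with an intensity trend), with the matched pair as a block and Benjamini-Hochberg adjustment over all of them. The fit has 1 residual degree of freedom, to which the prior adds 13.1, so the errors rest mostly on the spread pooled over all probe sets. The pairing comes from the labels; around their group means, matched arrays deviated together (r = 0.19 across probe sets, which are not independent replicates). With 4 arrays the number of clones limits the precision.

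The fit was tested on simulated data in which only bright probe sets, brighter than most of the tested members, carried a planted change. It therefore does not show how well changes in dimmer members are found. Alternatives changed the block, scaling, floor, filter or trend, or left out a clone. All members are described, and from each list the 4 genes of the largest mean difference are named. Members and lists were chosen with earlier results of these data known.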

Additional observations from a re-analysis of the deposited data

Results flagged for a closer look

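In 4 of the 7 tested members the matched pairs differed in opposite directions, as they did for Inhba, which was too dim to be tested. These differences between pairs were not tested, because each pair holds 1 array per clone. The log2 difference of the first pair minus that of the second was -1.12 for Tgfb2, 0.67 for Bmp4, -0.54 for Smad2 and -0.50 for Smad4.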

How the results depend on the processing

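No member passed the test under any of the 13 alternatives. Tgfb3, Tgfb1, Smad7 and Smad4 kept their direction wherever they were tested (Tgfb1 was not tested when all 4 arrays had to exceed the median). Changing the block, floor, filter or trend left these differences as they were, so those settings could not change a sign. For Tgfb3, Tgfb1 and Smad7 the groups did not overlap, so leaving out 1 clone could not change it either. Leaving out 1 clone moved Tgfb1 between 0.219 and 0.616, Smad7 between 0.195 and 0.632, Smad2 up to 0.384, Smad4 between 0.02 and 0.274, Tgfb2 up to 1.053, Bmp4 down to -0.575, untested Tgfbr1 between -1.41 and -0.322, and Bmp1 between 0.676 and 1.612. The Tgfb3 difference ran from -1.24 to -0.44, with a lowest adjusted p of 0.259. Signs changed for Bmp4 with quantile normalization (0.02), scaling to the median (0.031) and without clone 48 (0.299), for Tgfb2 without puroD (-0.19), for Smad2 without clone 48 (-0.006) and for Inhba, not tested, without clone 42 (-0.133). Over all genes the test called 7 probe sets, and 474 had an unadjusted p under 0.05. With no replicate block (the matched pair left out), quantile normalization, no floor, a floor at the 20th percentile or no filter the count was 0 (287, 375, 473, 474 and 560 at an unadjusted p under 0.05). It was 51 with scaling to the median, 49 with the filter on all 4 arrays, and from 0 (without puroB) to 51 (without clone 48) when 1 clone was left out (fits without the pair term), 17 without clone 42 and 2 without puroD. Of the pathway list genes, 1 passed with scaling to the median (Bmp1), and 0 to 1 when a clone was left out, which was Col1a2 without clone 48. Scaling to the median moved the median log2 difference of all tested probe sets to 0.132, against -0.038 with the scaling used, and differences under it are to be read relative to that shift. The cause was not tested for any of these changes. Signals near the background limit Tgfbr1, Tgfbr2, Inhba and the second probe sets of Tgfb3 and Bmp4.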
